A study of Rattus norvegicus with 58 samples.

Results

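Livers of the inbred rat strain WKY were compared with livers of 5 other inbred strains, ACI, BN, BUF, F344 and M520. The comparison rests on the 2 arrays titled as WKY liver, out of 58 liver arrays in all, and on 10 arrays of the other strains, 2 for each. WKY, the Wistar-Kyoto rat, is the usual normotensive partner strain of the spontaneously hypertensive rat. All rats were males killed at 17 weeks of age after a night without food, housed in pairs with free access to feed before that, and none of these inbred groups carried a transgene or received an agent, as far as the labels say. The remaining 46 arrays came from outbred heterogeneous stock (HS) rats, 23 with normal glucose tolerance and 23 glucose-intolerant. HS rats descend from inbred founders that include WKY, so they show whether a WKY level also occurs on a mixed genome.

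Hepatocytes make up most of a liver, beside Kupffer cells (resident macrophages), sinusoidal endothelium, stellate cells and bile duct cells. Interferons act on all of these cells through receptors that switch on antiviral genes, among them the Mx GTPases and the oligoadenylate synthetases. The histocompatibility complex, called RT1 in the rat, holds the class I and class II genes that present peptides to T cells, and it differs in sequence and gene content between inbred strains.

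The 31042 probe sets, groups of short probes that each measure one transcript, had deposited log2 values between 1.86 and 14.97, and the array medians lay between 5.33 and 5.39. A difference of 1 is therefore a 2-fold difference, and levels near or below 5.4 are dim. The hepatocyte identity list averaged 13.65 and 13.58 on the WKY arrays and from 13.36 to 13.66 on the other inbred arrays, with 0 of 11 members called (limma; 3 at an unadjusted p below 0.05). Albumin (Alb) read 14.96 and 14.94. No pair of arrays was identical, and 11 of the 12 inbred arrays correlated best with the other array of their own strain. The labels name neither litters nor days, so the p-values measure the spread between these arrays, which may be technical.

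In WKY, 829 probe sets were called higher (2.67%) and 642 lower (2.07%) at an adjusted p below 0.05 (limma, 4.74% of all), while 5615 had an unadjusted p below 0.05. With each gene represented by its brightest probe set, 824 of 14217 genes (5.8%) were called, 502 higher (3.53%) and 322 lower (2.26%). Among them 136 were higher and 87 lower by at least 1 on the log2 scale. The median difference over all genes was 0.01. Both WKY arrays lay above all 10 other inbred arrays for 648 genes (4.56%) and below all of them for 503 (3.54%). Over all probe sets those shares were 3.44% and 3.97%. Genes that were both called and separated in this way numbered 334 above (2.35%) and 186 below (1.31%). Tested also against the 1 strain nearest to WKY, 93 genes passed both tests (0.654%), 59 higher and 34 lower. Against a single strain, the share of probe sets called was 2.65% for ACI, 3.53% for BN, 6.06% for BUF, 3.78% for F344 and 5.91% for M520. The nearest strain of the 824 called genes was BN for 263, ACI for 193, BUF for 154, M520 for 124 and F344 for 90.

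The 2 WKY arrays were not equally far from the other strains. They differed from each other by over 1 in 424 probe sets and by over 2 in 50, against 35 to 341 and 0 to 19 within the other strains. Array 1 was farther from the other strains for 569 of the 824 called genes, with a median distance of 0.80 against 0.63 for array 2. Without WKY array 1 the fit called 487 probe sets, 258 higher and 229 lower, and 242 of the 824 genes stayed called. Without WKY array 2 it called 1574, and 544 of the 824 genes stayed. Where a call is said to be lost without an array, that array alone was left out, and "without either" means that the call was lost whichever of the 2 was left out. Leaving out an array also leaves fewer arrays for the test, so a call can be lost while the difference stays.

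**Figure D1:**
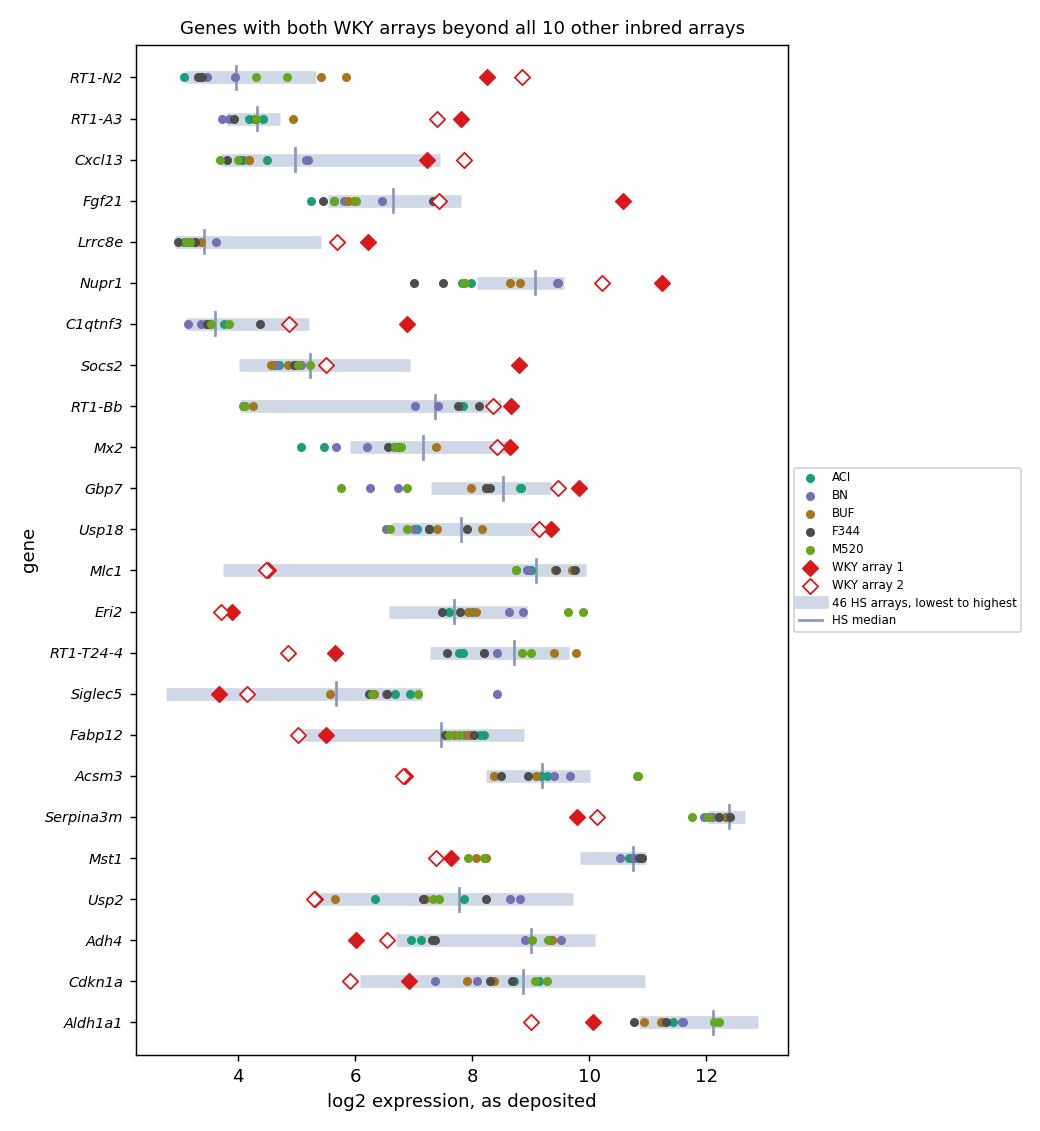
Deposited log2 expression (horizontal axis) of the 12 genes with the highest and the 12 with the lowest difference among called genes whose 2 WKY arrays both lie beyond the other 10 inbred arrays. Red diamonds are the WKY arrays, coloured points the other inbred arrays, bars the range of the 46 HS arrays and ticks their median. For RT1-N2 and RT1-A3 both diamonds lie right of the whole HS range, whereas for Fgf21 and Socs2 array 1 stands far from array 2.

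Interferon response genes were higher in WKY. Of 32 measured members of the type I interferon list 15 were called higher and 1 lower, with a median difference of 0.55, and for 16 of the 32 both WKY arrays were above all 10 others. Without array 1 there were 9 called higher and 0 lower, and without array 2 there were 12 and 1. The list's mean level was 7.70 and 7.69 on the WKY arrays and from 6.64 to 7.33 on the others, so the groups did not overlap.

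The promoters of interferon-responsive genes often hold the interferon-stimulated response element. Its core was searched as GAAA, any 2 bases and GAAA, on both strands, overlaps allowed, in the RefSeq promoters of build GRCr8, which run from 250 bases before to 50 bases after each gene's start. Of 33469 promoters 1312 (3.92%) held the motif, and of 13242 promoters of measured genes 399 (3.01%). A promoter was matched for 11 of the 15 higher interferon genes, and 6 of the 11 held the motif (54.5%): Oas1a, Irf7, Rsad2, Ifit3, Ifi44l and Ifi27. These genes come from a list of interferon response genes, so the share describes that list and not the difference of WKY. The share among the uncalled members of the list was not computed. The sequences around the match are shown for the 4 of largest difference with a match before the start, 5′ to 3′ on the strand of the gene, with the matching letters in capitals. The Oas1a stretch lies at chr12:41330375-41330465 on the plus strand, that of Irf7 at chr1:205800033-205800142 on the minus strand, that of Rsad2 at chr6:48788208-48788317 on the minus strand and that of Ifit3 at chr1:241527232-241527325 on the plus strand.
Oas1a: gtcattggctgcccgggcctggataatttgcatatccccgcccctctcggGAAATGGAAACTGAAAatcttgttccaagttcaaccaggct
Irf7: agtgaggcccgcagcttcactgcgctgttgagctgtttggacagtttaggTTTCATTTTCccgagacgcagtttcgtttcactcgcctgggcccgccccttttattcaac
Rsad2: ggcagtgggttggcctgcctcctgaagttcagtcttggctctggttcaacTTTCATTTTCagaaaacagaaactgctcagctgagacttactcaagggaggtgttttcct
Ifit3: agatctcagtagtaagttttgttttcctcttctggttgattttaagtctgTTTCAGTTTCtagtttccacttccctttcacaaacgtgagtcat
The Oas1a stretch holds 2 overlapping matches and the other 3 hold 1 each. These are letters of the reference genome and not of WKY.

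Among the effectors, Mx2, an antiviral GTPase, read 8.65 and 8.42 in WKY and from 5.08 to 7.38, with a median of 6.61, in the other strains. The groups did not overlap, and the difference was 2.21 ± 0.19 (SE, limma adjusted p = 3.81e-05), or 4.63-fold. A second Mx2 probe set showed a wider gap, at 9.11 and 8.99 in WKY against 3.06 to 5.81, a difference of 5.09 (adjusted p = 1.58e-09). On that second probe set the HS arrays ran from 2.65 to 8.23, all below both WKY arrays. On each of the 2 probe sets 18 of 46 HS arrays were nearer to the WKY mean than to the mean of the other strains. Mx1, its partner in the family, read 6.73 and 6.498 against 4.26 to 5.42, a difference of 1.74 ± 0.22 (SE, adjusted p = 0.000965). Oas1a, which makes the oligoadenylates that activate RNase L, read 8.53 and 8.93 against 5.39 to 8.41. Its difference of 1.64 (adjusted p = 0.00728) was not called without WKY array 1 (1.84, adjusted p = 0.051) or without array 2 (1.43, adjusted p = 0.0688). Rsad2, the antiviral enzyme viperin, read 8.02 and 7.87 against 6.55 to 7.49, above all other inbred arrays. Its difference was 0.91 (adjusted p = 0.00382, and 0.0815 without array 1). Ifit3, which takes part in binding foreign RNA, read 4.89 and 5.10 against 3.78 to 4.67, a dim signal with a difference of 0.88 (adjusted p = 0.00236).

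Genes that control the pathway were higher as well. Irf7, the transcription factor that amplifies interferon production, read 9.03 and 8.92 in WKY and from 6.58 to 8.22, with a median of 7.53, in the others, and the groups did not overlap. The difference was 1.58 ± 0.23 (SE, adjusted p = 0.00202). Isg15, a ubiquitin-like modifier, read 8.79 and 8.61 against 6.55 to 7.99, a difference of 1.49 (adjusted p = 0.00115). Usp18, the protease that removes Isg15 and restrains the interferon receptor, read 9.35 and 9.14 against 6.52 to 8.17, a difference of 2.04 ± 0.21 (SE, adjusted p = 0.00019). BUF was the nearest strain for Mx2, Usp18 and Isg15, and against BUF alone WKY was higher by 1.52, 1.46 and 1.09 (adjusted p = 0.00397, 0.00966 and 0.029). For Irf7 the difference from BUF was 1.04 (adjusted p = 0.0625), which did not pass.

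The other called members differed by less. Cmpk2, a mitochondrial nucleotide kinase, was higher by 1.17 and passed also against ACI, its nearest strain (0.999, adjusted p = 0.00827). Parp9 (0.91), Oasl (0.85), Herc6 (0.81), Rtp4 (0.75), Ifi44l (0.65) and Ifi27 (0.47) were called higher too. ACI read as high as WKY for Rtp4 (mean 9.74 against 9.64 and 9.87 in WKY) and near it for Parp9, and against the HS arrays Rtp4 had the opposite sign (-0.22). Oasl, Herc6, Ifi44l, Ifi27, Oas1a and Rsad2 were not called without WKY array 1, and Oas1a, Rtp4 and Ifi27 were not called without array 2. Oas1b, a relative of Oas1a, was the 1 lower member, at 3.27 and 3.63 against 3.62 to 4.52, a dim signal that differed by -0.63 (adjusted p = 0.0242, and 0.358 without array 1). Among the HS arrays 15 of 46 HS arrays were nearer to WKY for Irf7, 13 for Usp18 and Isg15 and 10 for Mx1.

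Of 5 measured interferon-inducible GTPases 3 were called higher, Gbp2 (0.96), Irgm (0.69) and Gbp4 (0.51). Against the nearest strain Gbp2 differed by 0.32 (BN, limma adjusted p = 0.704) and the dim Gbp4 by 0.19 (ACI, adjusted p = 0.551). BN array 1 read 6.96 for Gbp2, above WKY (6.76 and 6.67). Without array 1 Gbp4 alone stayed called and without array 2 none did (limma; adjusted p = 0.104 to 0.106). Gbp7, a guanylate-binding protein outside that list, read 9.82 and 9.46 against 5.76 to 8.83, a difference of 2.04 ± 0.23 (SE, adjusted p = 0.000336), and 22 of 46 HS arrays were nearer to WKY. Schlafen genes, which respond to interferon in several cell types, were also higher: Slfn4 read 10.07 and 9.99 against 7.30 to 8.65 (difference 1.95, adjusted p = 0.000541), while a second Slfn4 probe set differed by -0.01.

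**Figure D2:**
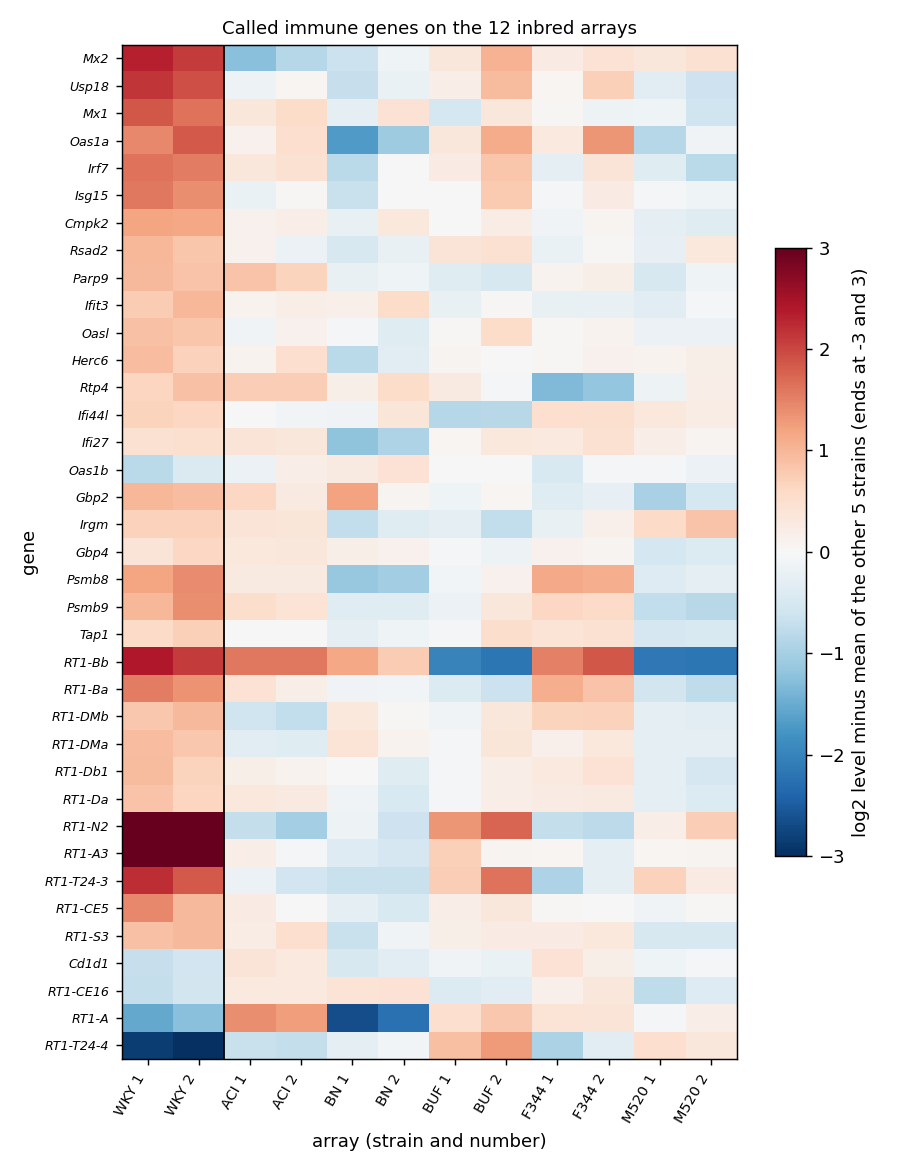
Log2 level minus the mean of the other 5 strains on each of the 12 inbred arrays (columns) for called genes of the interferon, GTPase, immunoproteasome and histocompatibility lists (rows), with the colour scale ending at -3 and 3. The 2 WKY columns are blue for Oas1b, Cd1d1, RT1-CE16, RT1-A and RT1-T24-4 and red for the other genes shown, and RT1-Bb is low in BUF and M520 rather than in all other strains.

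Class II histocompatibility genes, whose products present peptides on macrophages, dendritic and B cells, were called higher for 6 of 8 measured members and lower for 0, with a median difference of 0.83. RT1-Bb, a class II beta chain, read 8.66 and 8.36 in WKY and from 4.09 to 8.12 in the others, where BUF and M520 (means 4.17 and 4.11) stood below ACI, BN and F344 (7.83, 7.22 and 7.94). Its difference of 2.25 ± 0.13 (SE, adjusted p = 2.42e-06) was 0.57 against F344 alone, which did not pass (adjusted p = 0.102). RT1-Ba, the matching alpha chain, read 9.38 and 9.20 against 7.09 to 8.95, a difference of 1.44 (adjusted p = 2.93e-05). RT1-Da (0.75), RT1-Db1 (0.80) and the peptide exchange factors RT1-DMa (0.86) and RT1-DMb (0.88) were higher too, and without array 1 RT1-Da and RT1-Db1 were not called.

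Probe sets of the class II genes RT1-Ba and RT1-Bb did not agree. Besides the value above, 3 further RT1-Ba probe sets differed by -2.34 (adjusted p = 3.2e-05), -0.70 (adjusted p = 0.0248) and -0.62 (adjusted p = 0.0647), and their mean over the gene was -0.55. A second RT1-Bb probe set differed by -0.45 (adjusted p = 0.0318). A second RT1-Db1 probe set had the same sign, at 1.23. Over all 174 called genes named for this comparison, 58 further probe sets were measured, of which 19 were called with the same sign, 3 with the opposite sign and 36 not at all. The part of strain sequence differences under the probes, and of probes shared between related RT1 genes, was not tested.

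Class I genes, which present peptides on nearly all cells, went both ways: of 18 measured 5 were called higher and 4 lower, with a median of 0.32. RT1-N2 read 8.25 and 8.86 in WKY and from 3.08 to 5.85, with a median of 3.71, in the others. The groups lay far apart, with a difference of 4.45 ± 0.19 (SE, adjusted p = 2.53e-07), on a dim level in the other strains. The highest of 46 HS arrays read 5.33, so 0 were nearer to WKY. RT1-A3 read 7.81 and 7.40 against 3.73 to 4.95, a difference of 3.38 ± 0.17 (SE, adjusted p = 6.77e-07), and its highest HS array read 4.72. A second RT1-A3 probe set differed by 0.00. RT1-T24-3 (2.03), RT1-CE5 (1.21) and RT1-S3 (0.93) were higher, and of 4 further RT1-CE5 probe sets 2 were called higher, by 2.80 and 2.14, and 2 were not called.

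RT1-T24-4 was the lowest class I gene, at 5.65 and 4.85 against 7.56 to 9.77, a difference of -3.25 ± 0.20 (SE, adjusted p = 3.74e-06), with 0 HS arrays nearer to WKY. RT1-A, at 5.15 and 5.43, was lower than in ACI, BUF, F344 and M520 (means 6.75 to 7.99) but higher than in BN (mean 4.22, adjusted p = 0.00447 for the difference of 1.07). The remaining lower members, chosen after their values were seen, were RT1-CE16 (-0.64) and the lipid-presenting Cd1d1 (-0.63), and both were not called without array 1.

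Genes that prepare peptides for class I were higher for 3 of 12 members and lower for 0, with a median of 0.29. Psmb8, a catalytic subunit of the immunoproteasome, read 10.33 and 10.57 against 8.01 to 10.28, a difference of 1.30 ± 0.10 (SE, adjusted p = 2.22e-05). F344 came within 0.18 of WKY for Psmb8 (adjusted p = 0.548). Psmb9, its partner subunit, read 9.80 and 10.21 against 7.98 to 9.43, a difference of 1.20 (adjusted p = 0.000453). Tap1, the peptide transporter, differed by 0.64 (adjusted p = 0.0164) and was not called without either WKY array, and a second Tap1 probe set differed by -0.23.

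Of 31 chemokines and receptors 3 were called higher and 0 lower, with a median of 0.10. Cxcl13, the chemokine that draws B cells into follicles, read 7.23 and 7.86 in WKY and from 3.70 to 5.20 in the others, and the groups did not overlap. The difference was 3.26 ± 0.16 (SE, adjusted p = 6.21e-07), from a dim level in the other strains, and against BN, the nearest strain, it was 2.37 (adjusted p = 5.81e-05). HS arrays ran from 3.71 to 7.45, with 6 nearer to WKY. Ccl6, a chemokine of myeloid cells, was higher by 0.84 (not called without array 2, adjusted p = 0.103). Cxcl14 was higher by 0.85, but BN (mean 7.25) was as high as WKY (7.08 and 7.23), and a second probe set differed by -0.05.

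Markers of immune cells were measured beside these genes. Over all genes 5.8% were called, and 1 call among 14 markers is near that share. In whole liver, more cells of a type and more RNA per cell cannot be told apart. Among 14 markers of Kupffer cells and macrophages the WKY mean was higher for 13, and 1, the Kupffer cell lectin Clec4f (0.97, adjusted p = 0.00403), was called, with a median of 0.38. The mean level of these markers overlapped between groups, at 9.05 and 9.36 in WKY and from 8.33 to 9.65 in the others. Clec4f read 11.35 and 11.49 in WKY and as much in BN (mean 11.34). The macrophage genes Ms4a6a (1.28), Ms4a6bl1 (1.14) and Ms4a7 (0.49, not without either WKY array) were called as well, while second probe sets of Ms4a6a (0.37) and Ms4a6bl1 (0.25) were not.

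Of 17 T and NK cell markers 1, Cd8a (0.42, not called without either WKY array), was called, near the share of 5.8% over all genes. For this Cd8a probe set ACI (mean 4.99) lay above WKY (4.79 and 4.90). A second Cd8a probe set was called at 0.89 (limma adjusted p = 0.00168, 5.43 and 5.26 in WKY) and another differed by -0.01. Of the markers, 11 of the 17 lay below the array median on all 12 arrays; their mean was 5.04 and 5.28 against 4.93 to 5.27. Of 7 B and plasma cell markers Jchain, the joining chain of secreted antibodies, was higher by 1.29 (adjusted p = 0.00337) and Blk was lower (-0.65, adjusted p = 0.0156, not called without either WKY array). BN read as high as WKY for Jchain (mean 9.20 against 8.76 and 9.16), a second probe set differed by 0.13, and 0 of 46 HS arrays were nearer to WKY. The plasma cell gene Mzb1 differed by -0.18 and the B cell gene Ms4a1 by -0.16, both dim and uncalled. The 13 endothelial, 6 neutrophil and 5 dendritic cell markers had 0 called (limma, with 7, 1 and 3 at an unadjusted p below 0.05). For neutrophils, 5 of the 6 markers lay below the array median on all 12 arrays. Of the endothelial markers 11 of 13 had a higher mean in WKY, with a median of 0.24, and a second probe set of Lyve1, a receptor of sinusoidal endothelium, was called (0.44, adjusted p = 0.0423). Without array 2 there was 1 dendritic cell marker called higher. The part of cell numbers in the immune differences was not tested.

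Secreted defence proteins of the hepatocyte differed in few members. Of 28 complement and coagulation genes 3 were called higher and 0 lower, with a median of 0.13. C6, a component of the membrane attack complex, read 10.62 and 11.10 against 7.79 to 10.56, a difference of 1.85 ± 0.13 (SE, adjusted p = 1.08e-05), and F344 (mean 10.40) came closest, without a called difference (0.47, adjusted p = 0.183). C1r (0.59) and C5 (0.38) were called higher and were not called without either WKY array, which left C6 alone. Of 18 acute phase genes A2m, a protease inhibitor of the rat acute phase, was higher by 1.65 (adjusted p = 0.00114) and Lcn2, a siderophore-binding protein, by 1.44 (adjusted p = 0.00314), with 0 lower and a median of 0.06. Lcn2 read 4.75 and 5.77 against 3.05 to 5.04, so the groups overlapped on a dim signal. Serpina3m, a serine protease inhibitor, was lower, at 9.78 and 10.14 against 11.75 to 12.40, a difference of -2.21 ± 0.12 (SE, adjusted p = 1.2e-06), and all 46 HS arrays lay at or above 12.02.

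The 2 lowest of the separated genes lay apart from all other inbred arrays. Mlc1, a membrane protein best known from astrocytes, read 4.51 and 4.48 in WKY and from 8.74 to 9.76 in the others, a difference of -4.67 ± 0.11 (SE, adjusted p = 1.58e-09), down to a dim level. The HS arrays spanned both levels, from 3.74 to 9.94, with 5 of 46 nearer to WKY. Eri2, an exonuclease, read 3.89 and 3.70 against 7.48 to 9.89, a difference of -4.59 ± 0.13 (SE, adjusted p = 5.22e-09). The lowest HS array for Eri2 read 6.57, so 0 were nearer to WKY, and a second Eri2 probe set differed by -0.88 (adjusted p = 0.00475).

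Further genes were separated downward. Siglec5, an inhibitory receptor of myeloid cells that binds sialic acid, read 3.67 and 4.15 against 5.57 to 8.43, a difference of -2.75 (adjusted p = 0.00145), with 16 HS arrays nearer to WKY. Fabp12, a fatty acid binding protein, read 5.51 and 5.02 against 7.54 to 8.20, a difference of -2.61 (adjusted p = 1.87e-06), with 15 HS arrays nearer. Mst1, the hepatocyte-derived macrophage-stimulating protein, read 7.64 and 7.38 in WKY, and BUF and M520 were also low (means 8.15 and 8.06) beside ACI, BN and F344 (10.65 to 10.87). Against M520 alone Mst1 differed by -0.56 (adjusted p = 0.0498), and all 46 HS arrays lay at or above 9.84. Cdkn1a, the cell cycle inhibitor p21, read 6.92 and 5.92 against 7.36 to 9.28, a difference of -2.07 (adjusted p = 0.000597), and a second probe set differed by -1.62 (adjusted p = 0.0177).

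Upward, Lrrc8e, a subunit of volume-regulated anion channels, read 6.23 and 5.69 against 2.98 to 3.62, a difference of 2.74 ± 0.15 (SE, adjusted p = 1.2e-06), with 7 HS arrays nearer to WKY. Nupr1, a stress-induced chromatin protein, read 11.25 and 10.22 against 7.01 to 9.46, a difference of 2.49 ± 0.21 (SE, adjusted p = 3.23e-05). C1qtnf3, a secreted relative of adiponectin, read 6.88 and 4.88 against 3.14 to 4.38, a difference of 2.28 (adjusted p = 0.00467), with array 1 far above array 2. Of the 520 called and separated genes, 276 had a WKY mean beyond the whole range of the 46 HS arrays, and for 43 no HS array was nearer to WKY. The 520 were selected for WKY levels beyond the other strains. The same counts over all genes were not made, so these serve as description only. Without WKY array 1, 176 of the 520 stayed called.

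A difference from the mean of 5 strains can be shared with, or made by, another strain. For 83 of the 824 called genes another strain was at or beyond the WKY mean. Of 35 called genes that differed by 2 or more, 25 had both WKY arrays beyond all others and 10 did not, and these 10 are given here; 4 come from the gene lists and 6, Ugt2b, Zfp354a, Zeb2, RGD1309362, Ubd and Tmem14a, were chosen after their values were seen. Ugt2b, a glucuronosyltransferase of steroid and drug clearance, read 5.44 and 5.14 in WKY, 5.59 on average in ACI and 7.19 in F344, against 13.23 to 13.39 in BN, BUF and M520. Its difference of -5.24 ± 0.54 (SE, adjusted p = 0.000181) was the widest of any gene, a second probe set differed by -4.52, and ACI did not differ from WKY by the test (-0.30, adjusted p = 0.897). Ephx2, the soluble epoxide hydrolase that inactivates epoxides of arachidonic acid, read 7.75 and 6.999 in WKY and 7.81 on average in ACI, against 10.40 to 11.07 in the other 4 strains. For Ephx2 the difference was -2.71 ± 0.17 (SE, adjusted p = 3.74e-06), and 3 of 46 HS arrays were nearer to WKY.

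Zeb2, a transcriptional repressor, was low in WKY (4.56 and 4.89) and ACI (mean 4.64), at -2.51, while 4 further probe sets were uncalled (-0.16 to 0.49). Zfp354a, a zinc finger gene, was low in WKY (6.77 and 7.21) and BUF (mean 7.44), at -2.60. Tmem14a, a membrane protein, was high in WKY (7.77 and 7.64) and ACI (mean 8.34), at 2.56. For Ubd, a ubiquitin-like modifier, and RGD1309362 the WKY levels (4.89 and 5.41; 2.94 and 3.47) were also met in other strains, and ACI was high for both (means 10.41 and 10.14). Gsta3, a glutathione transferase, read 5.87 and 5.42 between F344 (mean 4.51) and BUF (6.99), at -2.01. Cyp4a8, a fatty acid hydroxylase, differed by 2.23 (not called without array 1), with BN and BUF (means 4.47 and 4.65) low beside WKY (9.44 and 8.58) and the other 3 strains. The last of these 10 is Lox, described with the matrix genes.

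Lists of drug and alcohol metabolism had called members in both directions. Of 20 alcohol and aldehyde dehydrogenases 5 were lower and 1 higher, with a median of -0.19; without array 1 there were 2 lower and 0 higher. Adh4, an alcohol dehydrogenase that also oxidises retinol, read 6.02 and 6.55 against 6.95 to 9.51, a difference of -2.13 ± 0.16 (SE, adjusted p = 1.97e-05), with ACI and F344 (means 7.03 and 7.34) nearest. Aldh1a1, which makes retinoic acid, read 10.06 and 9.0001 against 10.77 to 12.21, a difference of -1.92 ± 0.22 (SE, adjusted p = 0.000382), and 0 HS arrays were nearer to WKY. Adh7 (-0.80), Aldh7a1 (-0.60) and Aldh9a1 (-0.42) were lower and Aldh1a3 (0.80) higher, and these 4 were not called without array 1, nor Aldh9a1 without array 2.

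Of 42 conjugating enzymes 7 were lower and 1 higher (4 lower without array 1 and 12 without array 2), with a median of -0.15. Besides Ephx2 and Gsta3, the glutathione transferases Gstt3 (-1.69) and Gstm7 (-0.85) and the flavin monooxygenases Fmo1 (-1.11), Fmo5 (-1.04) and Fmo4 (-0.58) were lower. Gsto1 (0.39) was higher. Fmo4 and Gsto1 were chosen after their values were seen. For Fmo1 the BUF mean (9.11) lay below both WKY arrays (9.22 and 9.65). Gstm7, Fmo1, Fmo4 and Gsto1 were not called without array 1, nor Gsto1 without array 2. Of 39 cytochrome P450 genes and partners 8 were lower and 5 higher (4 and 3 without array 1), with a median of -0.12. Cyp2a2, a male-patterned steroid hydroxylase, read 11.05 and 11.69 against 12.59 to 12.96, a difference of -1.39 (adjusted p = 0.000129). Cyp2a1, of the same subfamily, read 9.84 and 10.0003 against 10.69 to 11.30, a difference of -1.09 (adjusted p = 0.000397). Cyp3a18 read 10.65 and 12.31, so its difference of -1.66 rested on array 1 (adjusted p = 0.179 without it).

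The other lower P450 genes, chosen after their values were seen, were Cyp2j4 (-0.85), Cyp2d3 (-0.79), Cyp2d4 (-0.78), Cyp2u1 (-0.69) and Cyp4f4 (-0.65), of which Cyp2d4, Cyp2u1 and Cyp4f4 were not called without array 1. Of the higher ones, Cyp2c7 (1.16) and Cyp4v3 (1.33) were set by a single low strain: Cyp2c7 averaged 9.80 in BUF and Cyp4v3 5.33 in F344, while WKY read 14.18 and 14.07, and 11.44 and 11.37. Cyp2c7 was not called without either WKY array. Cyp2c12, a female-patterned P450, differed by 0.99, with M520 (mean 10.27) above WKY (9.51 and 8.55), and was not called without array 1. Abcc2, the canalicular export pump, read 11.72 and 11.31 against 9.87 to 10.71, a difference of 1.30 ± 0.12 (SE, adjusted p = 6.3e-05), above all 46 HS arrays (highest 10.77). It was the 1 higher of 15 NRF2 targets, beside 2 lower, Akr7a3 (-1.19) and Abcc4 (-0.48), with a median of 0.02; both lower calls were lost without array 1 and that of Abcc4 also without array 2. The list median was 0.12 without array 1 and -0.18 without array 2. For Abcc4 the BN mean (5.13) lay below both WKY arrays (5.46 and 5.40).

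**Figure D3:**
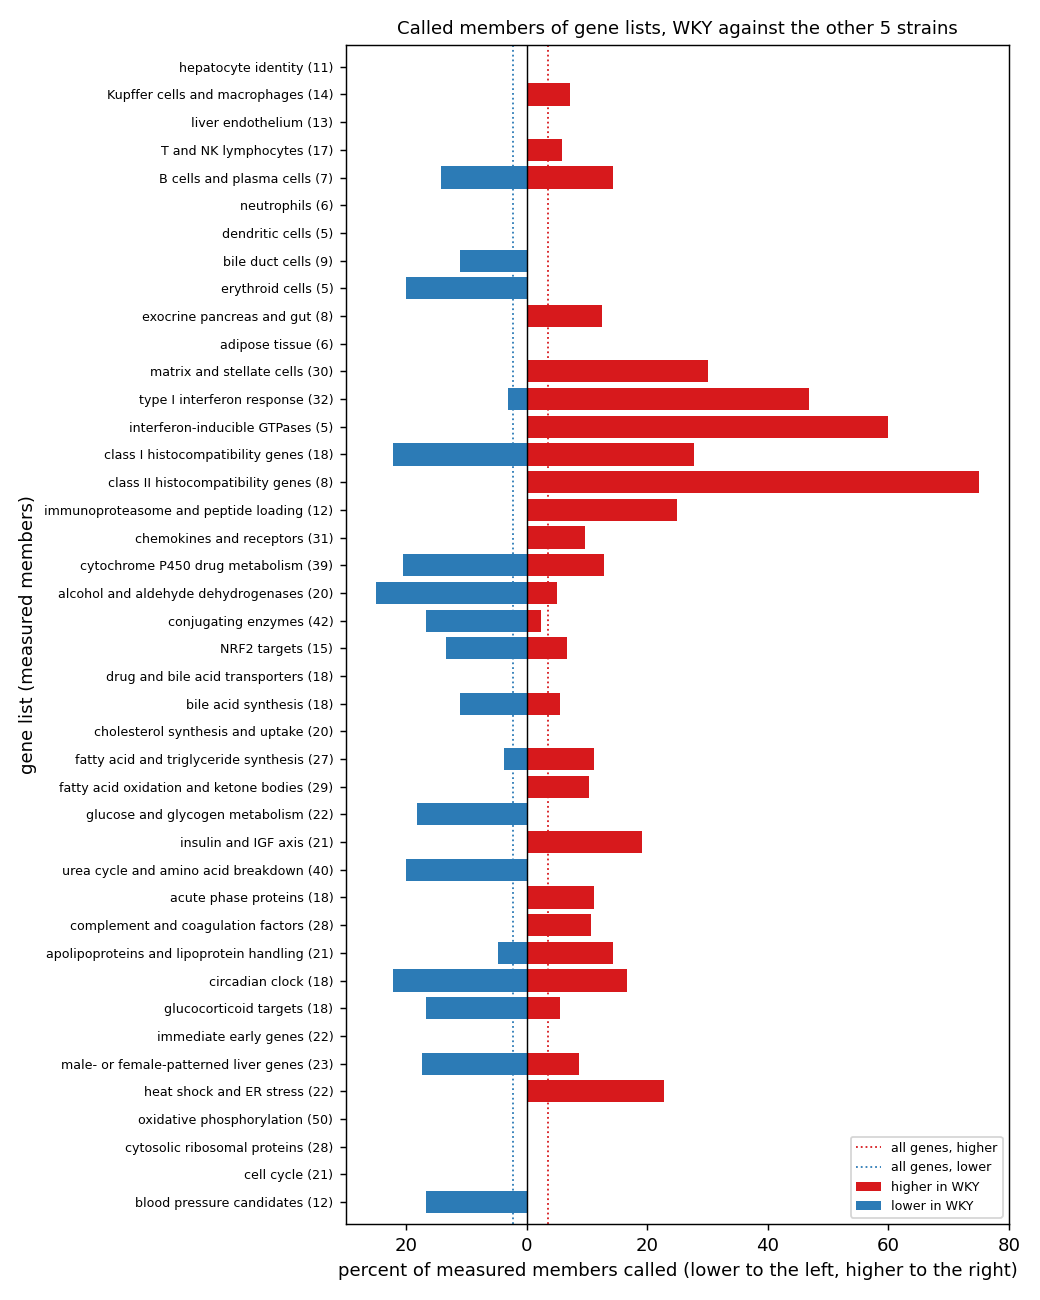
Percent of measured members called higher (red, right) and lower (blue, left) in WKY for 42 gene lists, with the number of measured members in brackets and dotted lines at the percent over all genes (3.53 higher, 2.26 lower). The class II, interferon and GTPase lists reach farthest to the right, and oxidative phosphorylation, ribosomal protein, cell cycle and cholesterol synthesis lists have no bar.

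Amino acid breakdown was lower in part. Of 40 urea cycle and amino acid genes 8 were lower and 0 higher, with a median of -0.25, and 9 of the 40 had a higher mean in WKY. The lower genes included Prodh, proline dehydrogenase (-0.91), Ivd of leucine breakdown (-0.86), Oat, ornithine aminotransferase (-0.85), Gls2, liver glutaminase (-0.78), Gpt, alanine aminotransferase (-0.73), and Hgd of tyrosine breakdown (-0.66), with Uroc1 (-0.52) and Gnmt (-0.52) chosen after their values were seen. The list's mean level was 10.82 and 10.88 in WKY and from 10.85 to 11.43 in the others, so the groups overlapped. Without array 1 the list had 0 called members at a median of -0.27, and without array 2 it had 9 lower. Cps1, which starts the urea cycle, differed by -0.11 (adjusted p = 0.578).

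In glucose and glycogen metabolism 4 of 22 genes were lower and 0 higher, with a median of 0.05. Ppp1r3b, which brings protein phosphatase to glycogen, read 8.89 and 9.31 against 9.39 to 10.9965, a difference of -1.14 (adjusted p = 0.00099), and a second probe set differed by -0.68 without being called. Pfkfb1 (-0.77), Pfkl (-0.63) and Pgm1 (-0.51) were lower and were not called without array 1, nor Pfkfb1 and Pfkl without array 2. In the insulin and IGF list 4 of 21 were higher and 0 lower, with a median of 0.25: Socs2, Igfbp3 (0.70), Igfals (0.63) and the growth hormone receptor Ghr (0.49). Ghr alone of these stayed called without array 1, and it was not called without array 2; the list median was then 0.00 and 0.27.

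Socs2, which dampens growth hormone signalling, read 8.79 and 5.50 in WKY and from 4.57 to 5.23 in the others. Both WKY arrays were the highest, but the difference of 2.28 ± 0.55 (SE, adjusted p = 0.0366) came from array 1 and was 0.63 (adjusted p = 0.143) without it. Fgf21, a fasting-induced liver hormone, read 10.58 and 7.43 against 5.25 to 7.33 in the same pattern, with a difference of 3.06 ± 0.61 (SE, adjusted p = 0.0151) and of 1.49 (adjusted p = 0.232) without array 1.

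Of the fatty acid desaturases Fads1, Fads2 and Scd2, called higher, Fads2 alone stayed called without each WKY array. Fads1, the delta-5 desaturase, read 12.16 and 12.68 against 10.21 to 12.20, so array 1 fell within the range of the others, and the difference was 1.24 (adjusted p = 0.00594, and 0.071 without array 2). Fads2, the delta-6 desaturase, read 10.97 and 11.04 against 9.46 to 10.78, a difference of 1.04 (adjusted p = 0.00292). In the synthesis list 3 of 27 were higher, including Scd2 (0.62, with 3 further probe sets from -0.18 to -0.02), and 1, Agpat2 (-0.71), lower, with a median of -0.02 (0.12 without array 1, with 2 higher and 0 lower). In the oxidation list 3 of 29 were higher and 0 lower, with a median of 0.17: Fgf21, the lipid droplet protein Plin2 (1.03, and -0.02 on a second probe set) and the receptor Ppara (0.65). Without array 1 that list had 1 higher at a median of -0.08, and without array 2 it had 9 higher at 0.35. Plin2 was not called without either WKY array, at 1.01 and 1.06, Ppara not without array 2, and Scd2 and Agpat2 not without array 1.

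In lipoprotein handling 3 of 21 genes were higher and 1, Apon (-0.58), lower, with a median of 0.16. Lpl, lipoprotein lipase, read 9.42 and 8.07 against 6.18 to 7.70, a difference of 1.84 ± 0.25 (SE, adjusted p = 0.00129). Angptl8, an insulin-responsive inhibitor of that lipase, read 9.27 and 9.35 against 7.19 to 8.91, a difference of 1.30 ± 0.13 (SE, adjusted p = 0.000143). Sort1, a sorting receptor, differed by 0.54, above all strains but BUF (mean 9.58), and like Apon it was not called without array 1. In bile acid synthesis Acox2 was higher (1.27) and Cyp7b1 (-1.26) and Cyp39a1 (-1.03) lower out of 18, with F344 as low as WKY for Cyp7b1 and BN for Cyp39a1; Acox2 was not called without array 2 and Cyp39a1 not without either. The 20 cholesterol genes had 0 called members and a median of -0.18 (limma; 2 at an unadjusted p below 0.05). That median was 0.20 without array 1 and -0.55 without array 2, where 2 were called lower.

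Clock genes were called in both directions, 3 higher and 4 lower of 18, with a median of -0.03. Usp2, a clock-driven deubiquitinase, read 5.32 and 5.30 against 5.65 to 8.82, a difference of -2.15 ± 0.40 (SE, adjusted p = 0.00997), and a second probe set differed by -1.54 (adjusted p = 0.0302). Usp2 was not called without array 1 (adjusted p = 0.116) or without array 2 (adjusted p = 0.0569). Nr1d1, the repressor REV-ERB alpha, read 7.86 and 7.58, within 4.20 to 8.42, since ACI and M520 were low (means 4.51 and 4.35), and its difference was 1.37 (adjusted p = 0.0167). It was not called without array 1 (adjusted p = 0.216) or without array 2 (adjusted p = 0.053). Nr1d2, its paralog, was higher by 1.30 with BN level with WKY. Cry1 (-1.22), Per1 (-0.87) and Npas2 (-0.72), which form or feed the core loop, were lower, and Bhlhe41 (0.52, chosen after its value was seen) higher. For Cry1 BN (mean 6.40) came near WKY (6.34 and 5.86), and against BN alone the difference was -0.30 (limma adjusted p = 0.611). Per1 and Npas2 were not called without either WKY array, and Bhlhe41 not without array 1.

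Without WKY array 1 the clock list had 1 higher (Nr1d2) and 1 lower (Cry1), and without array 2 it had 3 higher, Nr1d2, Bhlhe41 and Dbp (not called with both arrays), and 1 lower, again Cry1. Against the HS arrays Npas2 had the opposite sign (0.19). Per2 (-0.03), Clock (-0.03), Cry2 (0.01) and Tef (0.12) were uncalled. The labels give no hour of killing, and its part was not tested. Of 18 glucocorticoid targets Cdkn1a, Tsc22d3 (-1.10) and Per1 were lower and Lcn2 higher, with a median of -0.08 (-0.61 without array 1 and 0.19 without array 2), and Tsc22d3 was not called without either WKY array.

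Matrix and stellate cell genes were called higher for 9 of 30 members and lower for 0, with a median of 0.34. Loxl1, which cross-links elastin, read 7.03 and 7.47 against 4.91 to 5.91, a difference of 1.94 ± 0.14 (SE, adjusted p = 9.41e-06), and it also passed against BUF, the nearest strain (1.53, adjusted p = 0.000432). Lox, which cross-links collagen, read 7.19 and 8.39, below BN (mean 9.37) and above ACI, BUF, F344 and M520 (means 3.21 to 3.68), a difference of 3.16 ± 0.21 (SE, adjusted p = 8.06e-06). A second Lox probe set gave 2.90, and 4 of 46 HS arrays were nearer to WKY.

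The fibrillar collagens followed array 1. Col1a2 read 8.73 and 7.55 against 6.63 to 7.35, a difference of 1.15 (adjusted p = 0.0105, and 0.0985 without array 1). Col3a1 (1.13), Col5a2 (1.02), Vim (0.90) and, chosen after their values were seen, Col6a3 (0.80), Loxl2 (0.71) and Fbln5 (0.54) were also called. Second probe sets of Col1a2 (1.24) and Col5a2 (0.90) were called, whereas those of Col6a3 (-0.13) and Loxl2 (0.24) were not. For Col3a1 BN (mean 10.38) reached the level of WKY array 2 (10.37). Without array 1 the list had 2 called members, Lox and Loxl1, and without array 2 it had 14. Its mean level was 7.63 and 7.13 in WKY and from 6.67 to 7.23 in the others, so array 2 lay within the other strains.

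Stress genes showed the same dependence. In the heat shock and ER stress list 5 of 22 were higher and 0 lower, with a median of 0.29; without array 1 there were 0 (median 0.06) and without array 2 there were 8. All 22 members read higher on array 1 than on array 2, with mean levels of 10.49 and 9.70 against 9.35 to 9.98. Asns, asparagine synthetase, read 6.76 and 4.55 against 3.44 to 4.14, a difference of 1.93 (adjusted p = 0.0148, and 0.0923 without array 1). Hspb1 (1.22), Hspa1a (1.16), Creld2 (0.78) and Pdia4 (0.56) were the other members called.

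The genes with the widest gap between the WKY arrays, chosen after their values were seen, give the extent of the difference. Acot1, an acyl-CoA thioesterase, read 9.01 on array 1 and 3.98 on array 2. Onecut1, a hepatocyte transcription factor, read 12.003 and 7.26, Slc25a30 12.25 and 8.95, and the matrix proteoglycan Lum 7.10 and 3.46. Trib3 (10.42 and 7.02) and Atf3 (7.67 and 4.72), both genes of the integrated stress response, and Cish (8.12 and 5.36), a target of growth hormone signalling, went the same way.

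In the opposite direction Bcl6, a repressor of sex-patterned genes, read 7.47 on array 1 and 10.89 on array 2. Cyp7a1, the first enzyme of bile acid synthesis, read 8.31 and 11.51, Msmo1 of cholesterol synthesis 7.97 and 10.12, and the fatty acid synthase Fasn 7.46 and 9.43. Only 1 of the 20 cholesterol genes read higher on array 1 than on array 2. None of Acot1, Onecut1, Slc25a30, Lum, Trib3, Atf3, Cish, Bcl6, Cyp7a1, Msmo1 and Fasn was called as a strain difference (limma, adjusted p from 0.0779 to 0.91), although without array 2 the test called Acot1, Onecut1, Slc25a30, Lum, Trib3, Atf3 and Fasn.

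**Figure D4:**
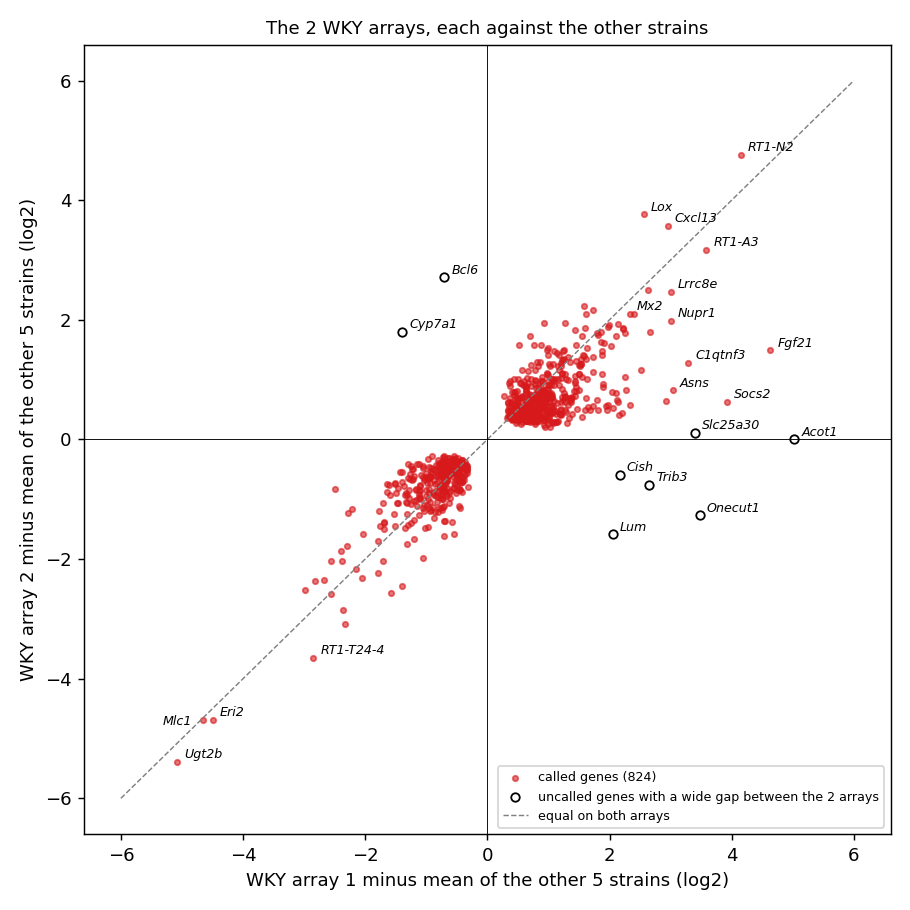
Distance from the mean of the other 5 strains on the log2 scale, WKY array 1 (horizontal) against array 2 (vertical), for 824 called genes (red) and 8 uncalled genes with a wide gap between the arrays (open circles). RT1-N2, RT1-A3, Mlc1, Eri2 and Ugt2b lie near the dashed line of equality, whereas Fgf21, Socs2 and Asns lie to its right.

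Several called genes sit side by side on a chromosome. In the gene order of the RefSeq table, with 14161 measured genes placed and 820 of them called, 12 runs of at least 3 neighbouring called genes held 41 genes. The longest run, of 5, was Psmb8, Tap1, Psmb9, RT1-DMb and RT1-DMa, with the uncalled Tap2 between it and the run RT1-Da, RT1-Db1, RT1-Ba and RT1-Bb. Every gene of these 2 runs was higher in WKY on its brightest probe set. Further probe sets differed by -2.34, -0.70 and -0.62 for RT1-Ba, -0.45 for RT1-Bb and -0.23 for Tap1. That of RT1-Db1 differed by 1.23. Another run of the complex, RT1-S3, RT1-T24-4 and RT1-T24-3, held both directions and was parted from RT1-N2 by the uncalled RT1-N3 (0.37).

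Outside the complex the run of Thumpd1 (-0.69), Eri2, Acsm3 and Lyrm1 (-0.42) was lower throughout, though Thumpd1 was not called without array 1 and Lyrm1 not without either. Acsm3, a medium-chain acyl-CoA synthetase once named SA and studied as a hypertension candidate, read 6.84 and 6.82 against 8.38 to 10.83, a difference of -2.58 ± 0.17 (SE, adjusted p = 5.56e-06), and the lowest HS array read 8.23. Next to that run, past the uncalled Acsm1 (0.03), stood its relatives Acsm5 (1.61), Acsm2 (-0.97, not without array 2) and RGD1559600 (-0.97, not without array 1). For Acsm5 ACI and M520 (means 9.39 and 9.11) were level with WKY (8.83 and 9.49), and for Acsm2 ACI and M520 were low as well (6.61 and 5.89). Of 12 blood pressure candidates 2, Acsm3 and Ephx2, were lower and 0 higher, with a median of -0.02.

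The Schlafen run held Slfn5 (0.82), Slfn9 (0.73), Slfn2 (0.76) and Slfn4, and a further run held Gbp7, Gbp4 and Gbp2. Tmem144 (1.48), between C2h4orf46 (0.99) and Gask1b (0.76), read 8.40 and 7.63 against 6.23 to 6.74, with 0 HS arrays nearer to WKY, and a second probe set gave 2.07. Mlc1 ended a run with Creld2 (0.78) and Pim3 (-1.01), and the others were Ms4a7, Ms4a6bl1 and Ms4a6a, Cyp2c6v1 (0.34), Cyp2c7 and Cyp2c12, and Slc25a33 (0.52), Spsb1 (-1.06) and H6pd (-0.53). Of these, Slfn2, C2h4orf46, Gask1b, Slc25a33 and Creld2 were not called without array 1, and Spsb1 not without array 2. Pim3, Cyp2c6v1 and H6pd were not called without either. Within the RT1, Acsm, Slfn, Gbp, Ms4a and Cyp2c runs the genes are paralogs, so shared probe sequence could link their values, and its part was not tested.

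**Figure D5:**
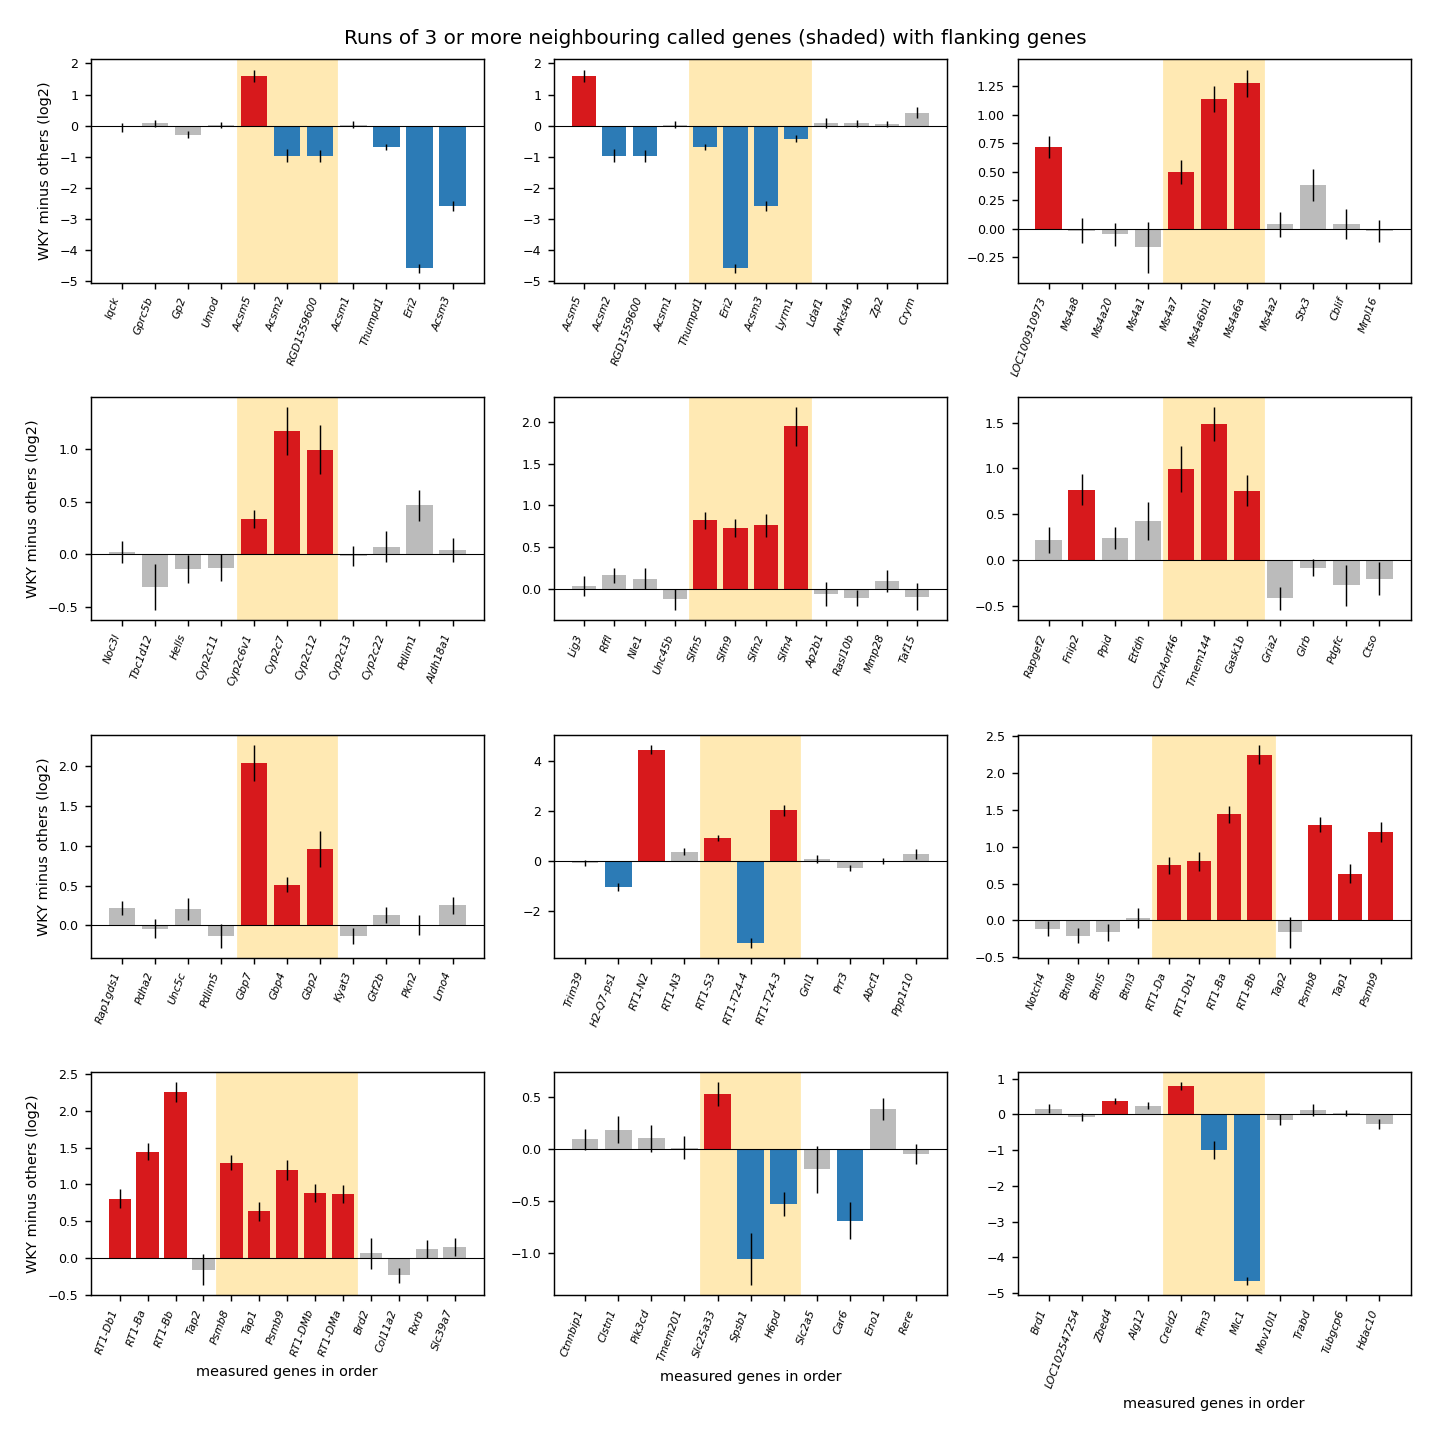
Difference of WKY from the mean of the other 5 strains (log2, bars with SE) for measured genes in chromosome order, 1 panel for each of the 12 runs of called neighbours (shaded) with up to 4 flanking genes on either side. Red bars are called higher, blue bars called lower and grey bars not called. Each bar is the brightest probe set of its gene. The panels of the class II and immunoproteasome genes are red throughout the shading, and the panel with Eri2 is blue.

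Lists of core machinery, immediate early genes and transporters had 0 called members. Over all genes 5.8% were called, so lists of this size would hold few calls in any case. Of 21 cell cycle genes 10 lay below the array median on all 12 arrays, as did 6 of 22 immediate early genes. Oxidative phosphorylation (50 measured), cytosolic ribosomal proteins (28), cell cycle (21), immediate early genes (22) and drug and bile acid transporters (18) had 0 called members each (limma; 0, 1, 3, 6 and 3 at an unadjusted p below 0.05), with medians of -0.06, 0.13, -0.07, 0.12 and 0.09. Without array 1 there were 1 immediate early gene lower and 1 transporter higher, and without array 2 there were 3 immediate early genes higher and 1 transporter lower. Sex-patterned liver genes had 2 higher and 4 lower of 23, among them Cyp2a2, Cyp3a18 and Hsd3b5 (-0.58), and without array 1 they had 0 higher and 3 lower, with Hsd3b5 and Cyp3a18 not called. Of the marker lists for other tissues, bile duct (9 measured) had Cldn7 lower (-1.25), erythroid cells (5) had Slc4a1 lower (-0.94), both lost without array 1 and Cldn7 also without array 2, exocrine pancreas and gut (8) had Cela1 higher (1.29, BN and ACI alike) and adipose tissue (6) had 0 called (limma; 1 at an unadjusted p below 0.05). Without array 2, 4 bile duct, 2 pancreas and gut and 2 adipose markers were called higher.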

How the data were processed

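The table deposited by the authors holds log2 expression values of 31042 probe sets from single-colour arrays, 1 GEO sample each. Per the labels' protocols RNA was amplified in 2 rounds and labelled with biotin; the submitters' processing notes name Partek, while how values were normalised is not stated in the sources used here. Gene names came from the platform annotation: 20826 had 1 symbol, 436 several and 9780 none. A gene is its probe set of highest mean over all arrays, and 14167 of 14217 genes were found in GRCr8. Strain means of the 12 inbred arrays were fitted with limma 3.58.1 in R 4.3.3 (6 residual degrees of freedom), and WKY was tested against the unweighted mean of the other 5 strains, with Benjamini-Hochberg adjustment over all probe sets at 0.05 and no filter. Fits were tested on simulated data. The number of arrays limits the precision.

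The genes, lists and tests were chosen with earlier results of these data known. Named genes are the 12 highest and 12 lowest called genes with both WKY arrays beyond the other 10, up to 6 called members of each list, marker genes and genes of neighbouring runs; further genes are said to be chosen after their values were seen. Alternatives changed the normalisation, filter, probe set choice, variance estimate, reference, replicate block and single arrays.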

Additional observations from a re-analysis of the deposited data

How the results depend on the processing

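With 2 arrays per strain, WKY array 1 limited the results most. Leaving out single inbred arrays gave 487 to 1751 called probe sets, 258 to 999 higher and 229 to 767 lower. The probe sets with all remaining WKY arrays above the others then numbered 1068 as reported and 1123 to 3922, and below 1233 and 1319 to 4783, since a single WKY array separates more easily. With 1 probe set per gene 973 were called (386 lower), and with the mean of a gene's probe sets 918 (551 higher, 367 lower), since fewer features are tested. The lower calls fell to 388 with the spread from all 58 arrays and to 394 with the HS arrays as reference; the cause was not tested. The share of calls that were higher was then 64.6% and 65.5%, against 56.4% as reported, and 63.5% without WKY array 2. Without BN in the reference 1684 probe sets were separated above, and among brighter probe sets 543 below. Reversed values were Npas2 (0.19) and Rtp4 (-0.22) against the HS arrays and RT1-Ba (-0.55) as the mean of its probe sets. Of 174 called named genes 84 stayed called without WKY array 1, 135 without array 2, 84 against the HS arrays and 98 with the spread from all arrays; the fewest under any other setting was 142, without ACI array 2. With the replicate number as a block 1502 probe sets were called and 169 of the 174 genes stayed. Same-numbered arrays deviated together in some pairs of strains and not in others (correlations from -0.15 to 0.42), so not every pair passed 0.1 and the numbers were not taken as pairing.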
